A study of Homo sapiens with 6 samples.

Results

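Camptothecin at 4 h was compared with camptothecin at 2 h in the parent cells of the CCRF-CEM line, an established human T lymphoblast leukaemia line that expresses SLFN11. The members were the accessible regions that the deposited peak list coded as parent 4 h or the list coded as parent 2 h held on chromosomes 1 to 22 and X, after overlapping peaks were merged. There were 26395 such regions, 82.4% of the 32037 regions found in any of the 6 lists of the series. The 4 h list held 21617 peaks and the 2 h list 23665. Both lists held 70.0% of the regions, and of the corresponding 23967 regions of the SLFN11-knockout cells both lists held 65.9%.

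Accessibility was measured by ATAC-seq in 6 groups of 1 library each. In this assay a transposase cuts exposed DNA and adds sequencing tags. The groups were parent cells with 100 nM camptothecin for 4 h, with 100 nM camptothecin for 2 h and with DMSO, the solvent, and SLFN11-knockout cells derived from the same line with the same treatments. The labels do not say how many knockout clones were used, and an effect of the clone and one of the genotype cannot be told apart. With 1 library per group no value has a replicate spread, no p-value is given for any difference, and the 95% intervals below cover counting error only.

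The code in each peak list names a condition that differs from the sample under which the list is recorded. Codes and recorded samples matched in 0 of 6 lists. Conditions are given here by the code, which also stands in the sample titles. By the recorded samples, the list called 4 h here would be the parent 2 h library, the list called 2 h would be the parent DMSO library and the list called DMSO would be the parent 4 h library. The same pair of lists would then compare 2 h of camptothecin with DMSO, and every statement below on what follows 2 h depends on the codes being right.

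Camptothecin traps topoisomerase I on DNA at the nick the enzyme makes, and replication forks that meet such a complex stall or break. SLFN11 is recruited to stressed forks, blocks their progress and sensitises cells to drugs that damage replicating DNA. It has also been linked to opening of chromatin during replication stress. Open regions are mostly promoters and enhancers, and they lie closest together on gene-rich chromosomes such as 17, 19 and 22. The positions are those of the hg19 build, of which no gene annotation or sequence was used here, so genes, promoters and T cell markers were not located and no sequence is printed.

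The regions fell into 7 patterns by which of the 3 parent lists held them, and most of the set that appeared at 2 h continued at 4 h. Of 27181 regions in the 3 parent lists, 12152 (44.7%) were held at DMSO, 2 h and 4 h. The next largest set, 6319 regions (23.2%), was absent from the DMSO list and held at both 2 h and 4 h. A further 2751 regions (10.1%) were held at 4 h alone and 4212 (15.5%) at 2 h alone. The 3 sets that DMSO held but a camptothecin list lacked held 721 regions at DMSO and 2 h, 214 at DMSO and 4 h, and 812 at DMSO alone. This order depends on list length, as the DMSO list was the shortest. With all lists at the 14205 most significant peaks, 2386 regions were at DMSO alone, 2155 at 2 h and 4 h, 1292 at 4 h alone and 897 at 2 h alone.

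**Figure D1:**
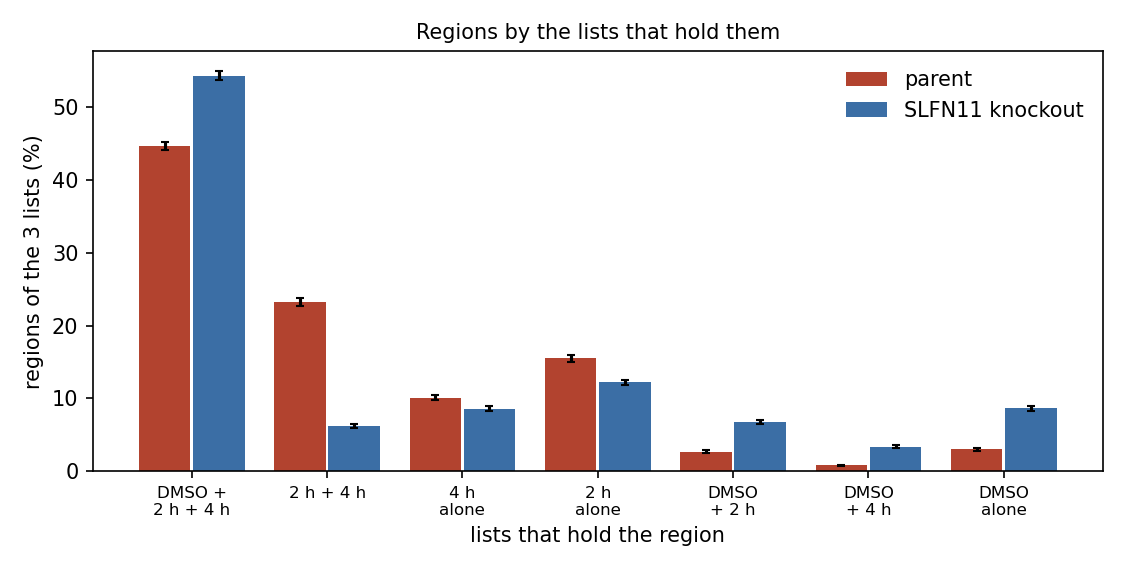
Share of regions, in percent of all regions in the 3 lists of a genotype, by the lists that held them. Bars are parent and SLFN11-knockout cells, and error bars are Wilson 95% intervals of counting error. The 2 h and 4 h pattern holds 23.2% of parent regions and 6.16% of knockout regions.

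Regions that continued were counted first. Of the 10531 regions that the 2 h list held and the DMSO list lacked, the 4 h list still held 6319 (60.0%, Wilson 95% interval 59.1 to 60.9%). In knockout cells the corresponding number was 1606 of 4787 (33.5%, 32.2 to 34.9%). The 3 knockout lists were closer to each other in length than the 3 parent lists, and the comparison was therefore repeated with lists of this equal length. The shares were then 70.6% in parent and 43.4% in knockout cells.

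The retained share also differed between genotypes within some classes of 2 h signal. The summit pileup is the number of reads that overlap a peak's summit, recovered from the deposited values without any scaling. Among regions new at 2 h with a pileup of 21 to 40, 2402 of 2665 (90.1%, 88.9 to 91.2%) were still held at 4 h in parent cells, against 185 of 324 (57.1%, 51.7 to 62.4%) in knockout cells. For a pileup of 11 to 20 the shares were 56.2% (54.8 to 57.5%) and 37.1% (35.4 to 38.8%). At a pileup of 10 or fewer they were 23.05% (21.2 to 25.0%) in parent and 19.9% (17.9 to 22.1%) in knockout cells, and these intervals overlap. Above a pileup of 40 the knockout cells had too few new regions for a comparison, with 14 regions at 41 to 80 and 9 above that. Only the 2 h pileup was matched, not the other libraries. At regions held by both lists, the median pileup ratio of 2 h to DMSO was 2.27 in parent and 1.125 in knockout cells. The median log2 ratio of 4 h to 2 h was 0.14 and -0.23. A region new at 2 h can thus be a different kind of region in each genotype. The part of these library levels in the retained shares was not tested, nor was whether the genotypes differ.

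Regions that reversed were fewer. The 2 h list lacked 1026 regions of the DMSO list, and the 4 h list held 214 of them again (20.9%, 18.5 to 23.5%). In knockout cells 871 of 3133 such regions (27.8%, 26.3 to 29.4%) were held again. In the other direction, the 4 h list lacked 4933 regions of the 2 h list, and 4212 of these (85.4%, 84.4 to 86.3%) were also absent from the DMSO list. In knockout cells 64.4% (63.1 to 65.7%) of the 4939 regions lost from 2 h were absent at DMSO. These shares stand on unlike bases. Of all 2 h peaks, 45.4% in parent and 23.1% in knockout cells had no DMSO peak. Of the 12873 regions that parent cells held at DMSO and at 2 h, the 4 h list lacked 721 (5.60%, 5.22 to 6.01%), against 1758 of 15937 (11.03%, 10.6 to 11.5%) in knockout cells.

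Regions that started at 4 h were narrow and low. The median width of the 2751 regions held at 4 h alone was 201 bp, and their median summit pileup was 11. Regions held at 2 h alone were alike in both, with a median of 206 bp and a pileup of 12. The regions held at 2 h and 4 h measured 435 bp, with a pileup of 19 at both times, and those held in all 3 lists measured 737 bp, with a pileup of 55 at 4 h, against 47 at 2 h. The lowest pileup of any listed peak was 8, so the regions of a single list stood close to the calling limit.

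The patterns differed in how often knockout cells held the same regions. No knockout list held 71.5% (69.8 to 73.2%) of the regions at 4 h alone and 58.5% (57.0 to 60.0%) of those at 2 h alone. For regions at DMSO alone the share was 48.4% (45.0 to 51.8%). Regions of a single knockout list were also often in no parent list. These shares were 56.3% at 4 h alone, 47.1% at 2 h alone and 51.4% at DMSO alone, so such absence was not particular to parent cells. For regions held at both 2 h and 4 h in parent cells, 22.98% (21.96 to 24.0%) were in no knockout list and 31.8% (30.7 to 33.0%) were in all 3. Of the regions in all 3 parent lists, 0.815% were in no knockout list and 91.1% were in all 3.

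Chromosomes 17, 19 and 22, which were grouped after results of these data were known, took different shares of the patterns. Of all peaks of a parent list they carried 14.1% at 4 h, 12.7% at 2 h and 10.7% at DMSO. They carried 18.5% (17.6 to 19.5%) of the regions held at 2 h and 4 h and 15.01% (13.7 to 16.4%) of those at 4 h alone. The interval at 4 h alone includes the share of the whole 4 h list. Their share was 7.41% (6.65 to 8.24%) of the regions at 2 h alone and 2.77% (1.803 to 4.25%) of those at DMSO and 2 h. It was as low among regions at DMSO and 4 h, at 2.80%, and among those at DMSO alone, at 2.71%. In these sets, which DMSO held but a camptothecin list lacked, the share was low whether or not the 4 h list held the regions. Among regions in all 3 parent lists it was 11.8%. In knockout cells the order was the other way round, with 5.95% (5.04 to 7.01%) of the regions at 4 h alone and 11.1% (10.1 to 12.2%) of those at 2 h alone on these chromosomes. The whole knockout lists had 10.6% at 4 h and 11.6% at 2 h, so the share at 2 h alone was near that of its list.

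The direct comparison of the 2 lists showed where peaks were added and where they were missing. The 4 h list added 2974 of its 21617 peaks (13.8%), and 4948 of the 23665 peaks of the 2 h list were missing at 4 h (20.9%). The corresponding shares in knockout cells were 16.5% added and 24.0% missing. On chromosomes 17, 19 and 22 the number of peaks was 3042 at 4 h, against 2995 at 2 h, and on the 20 other chromosomes it was 18575 at 4 h, against 20670 at 2 h. These 3 chromosomes differed from the others by -11.2 percentage points in the share of missing peaks, and by 0.06 points in the share of added peaks. The added share was 13.8% (12.6 to 15.1%) on them and 13.7% (13.3 to 14.3%) on the others.

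Single chromosomes spread widely in the share of missing peaks. It was lowest on chromosome 19, at 9.42% (7.93 to 11.1%), and next lowest on 17, at 12.0% (10.3 to 13.9%). On 22 the share was 13.6% (10.8 to 16.9%) and on 16 it was 14.2% (12.1 to 16.6%). Chromosome 18 had the highest share, 32.6% (28.3 to 37.3%). It was followed by 27.3% (23.7 to 31.2%) on chromosome 13 and 27.2% (24.6 to 29.9%) on chromosome 4. Neighbours in this order overlap in their intervals. Peak numbers were higher at 4 h than at 2 h on chromosomes 16, 19 and 22, with 913 against 902, 1327 against 1274 and 488 against 487 peaks, and lower on the 20 remaining chromosomes, 17 included, with 1227 against 1234.

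Peaks that differed between the lists were mostly those of low signal. At a summit pileup of 10 or fewer, 54.7% (52.6 to 56.9%) of the 4 h peaks were added and 74.9% (73.0 to 76.7%) of the 2 h peaks were missing. At 11 to 20 the shares were 25.8% added and 39.2% missing, and at 21 to 40 they were 4.42% and 5.48%. Between 41 and 80 they were 0.641% and 0.406%. Over the whole range only 43 added and 36 missing peaks had a pileup above 40. Of these, 37 added and 35 missing peaks either lay on a local background of at least 10 reads or were at most 170 bp wide.

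**Figure D2:**
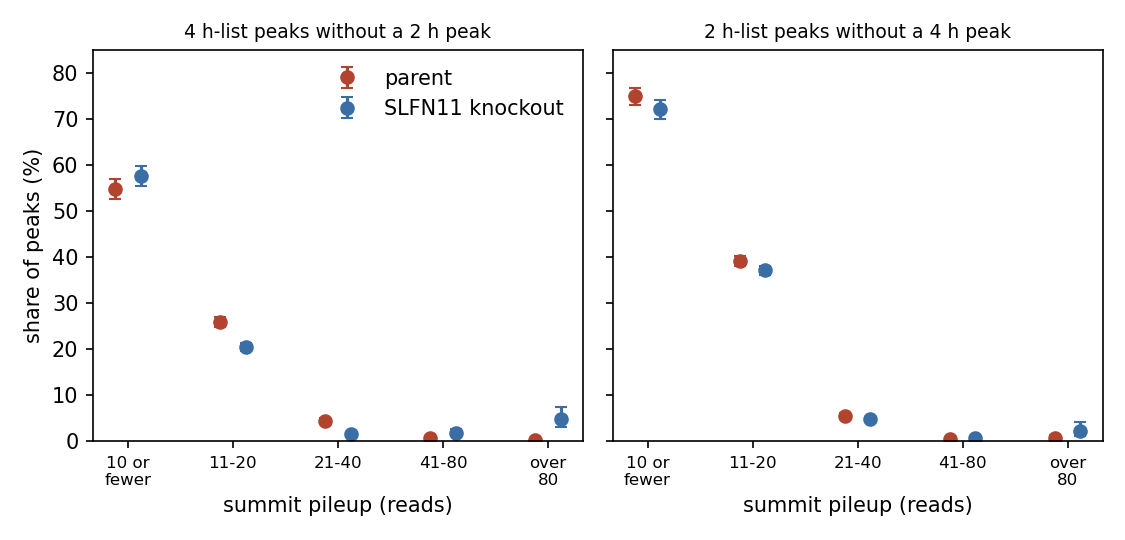
Share of peaks, in percent, that the other list lacked, by class of summit pileup in reads, for 4 h peaks without a 2 h peak (left) and 2 h peaks without a 4 h peak (right). Points are parent and SLFN11-knockout cells with Wilson 95% intervals, and the parent share runs from 54.7% added and 74.9% missing in the lowest class to below 1% above a pileup of 40.

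Named regions of a single list show what these differences look like. The region of at least 300 bp with the highest significance at 4 h alone was chr12:2144178-2144532, with a pileup of 25 over a background of 1.88. It was followed by chr19:7739078-7739468, with 29 over 3.15, and chr10:129809697-129810021, with 22 over 1.54. Knockout lists held the chromosome 12 region in 3 of 3 cases, the chromosome 10 region in 1 and the chromosome 19 region in 0. Without a width limit, the leading region at 4 h alone was only 133 bp wide, chr16:35239604-35239736, with a pileup of 88 over 2.91. It lies beside the centromere of chromosome 16, where repeated sequence makes read placement uncertain.

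At 2 h alone the leading regions of this width had similar pileups. These were chr3:143082133-143082524, with a pileup of 25 over a background of 1.66, chr15:86232921-86233223, with 29 over 2.60, and chr7:108899056-108899627, with 25 over 1.93. All were also held by at least 1 knockout list. The leading narrow region, chr9:44070657-44070794, had 125 reads over 3.16 in 138 bp and lies in the pericentromeric part of chromosome 9.

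Among regions that DMSO lacked and both times held, the leaders had nearly equal signal at 4 h and 2 h. chr1:144519679-144520580 had a pileup of 64 at 4 h and 64 at 2 h. chr14:75530492-75531054 had 50 at 4 h, against 49 at 2 h, and chr3:9885439-9886039 had 59, against 54. The narrow chr4:70296610-70296754 had 112 at 4 h, against 94 at 2 h. In each case the counting interval of the ratio included 1, as in the chromosome 3 region with a ratio of 1.09 (0.743 to 1.61). All of them were held by the 3 knockout lists, the knockout DMSO list included.

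Regions held at DMSO and 2 h but missing at 4 h were mostly led by places of high background. chr1:121478397-121479080 was held at DMSO and 2 h and not at 4 h, with a pileup of 108 at 2 h and 127 at DMSO over backgrounds of 15.4 and 17.7. chr8:46852425-46852900 had 178 at 2 h and 127 at DMSO over backgrounds of 54.5 and 51.4. Both lie next to centromeres. The narrow leader, chr1:565721-565856, had 2406 at 2 h and 2793 at DMSO over a background above 1000 reads, in a stretch of chromosome 1 that is a nuclear copy of mitochondrial DNA. The remaining leader, chr4:161777649-161777959, had 21 reads at both times over low backgrounds of 1.57 and 1.58.

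The regions held at DMSO and 4 h but not at 2 h were led by places of both high and low background. chr2:92322505-92322873, beside the centromere, had 271 at 4 h and 290 at DMSO over backgrounds of 133 and 136. chr2:89868015-89868319 had 59 at 4 h and 85 at DMSO over 18.4 and 24.7, and the narrower chr2:89853143-89853336 had 81 at 4 h and 88 at DMSO over 5.53 and 6.38. chr4:171180818-171181183 had 21 at 4 h and 22 at DMSO over backgrounds below 2. At DMSO alone the leaders were chr12:132634042-132634397 with 30 reads, chrX:61821261-61821668 with 28, chr8:82088702-82089025 with 21 and the narrow chrX:61815091-61815236 with 79.

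Signal at the 18471 regions that all 3 parent lists or the 2 h and 4 h lists held was then compared. The median summit pileup was 36 at 4 h, against 34 at 2 h, and the median log2 ratio of 4 h to 2 h was 0.14. In knockout cells the medians were 20 at 4 h, against 24 at 2 h, over 15785 regions, with a median log2 ratio of -0.23. The lowest background of a list, which follows read number and read length, was 1.26 at 4 h, against 1.29 at 2 h, in the parent libraries. The log2 ratio of 4 h to 2 h was -0.04 by this lowest background and 0.20 by the summit pileup summed over the shared regions. Values called centred below have the median log2 ratio of their own genotype taken off, 0.14 in parent and -0.23 in knockout cells. A centred knockout value above 0 can therefore still be a fall from 2 h to 4 h. Fewer open cells and less open chromatin per cell cannot be told apart in these bulk libraries.

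Few shared regions differed by a large factor. More than 2-fold above the median ratio were 83 regions (0.449%), and more than 2-fold below it were 490 (2.65%). The split depends on the scaling, since with the lowest background in place of the median it was 321 above (1.74%) and 230 below (1.25%). Knockout cells had 123 regions above (0.779%) and 61 below (0.386%). By the counting interval of each region's ratio, 1573 parent regions (8.52%) lay above the median ratio and 829 (4.49%) below it, against 356 (2.26%) and 168 (1.06%) in knockout cells, whose pileups were lower and whose intervals were therefore wider.

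The pileups of the regions above and below the median are given as a description, since the ratio of 4 h to 2 h chose them. Of the 1573 regions above, 1425 were held at DMSO, and over these the median pileup was 25 at DMSO, 59 at 2 h and 101 at 4 h. Of the 829 below, 684 were held at DMSO, and their medians were 20, 44 and 26. The regions whose interval included the median had 18, 45 and 51. The direction of the step to 4 h is fixed by the choice, and a high or low 2 h value also moves the step before it, so neither step shows a course of its own.

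In the knockout libraries, which did not enter this choice, the same regions did not move the same way. Both knockout lists of 4 h and 2 h held 1493 of the regions above, where the centred median log2 ratio was -0.12 in knockout cells and 35.1% lay above the knockout median. They held 727 of the regions below, where it was 0.17 and 66.9% lay above. Over all shared regions the corresponding values were -0.02 and 47.7%. The regions above by the counting interval had a median width of 808 bp, against 635 bp over all shared regions. Narrow intervals favour regions of high pileup, and the 83 regions more than 2-fold above measured 547 bp. Chromosomes 17, 19 and 22 held 28.5% (26.3 to 30.8%) of the regions above by interval and 47.0% (36.6 to 57.6%) of those more than 2-fold above. Those below by interval measured 586 bp, and 2.895% (1.95 to 4.27%) lay on these chromosomes, against 14.1% of all shared regions.

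The 5 regions of highest ratio are shown as examples, chosen for that ratio. They were taken from shared regions of at least 300 bp that reached a pileup of 20 in at least 1 list. chr17:40811004-40811517 had 27 reads at 4 h, against 9 at 2 h, a ratio of 3.00 (1.37 to 7.25), and was not in the DMSO list. chr19:11750275-11750975 had 10 reads at DMSO, 19 at 2 h and 53 at 4 h, with a ratio of 4 h to 2 h of 2.79 (1.62 to 4.99). chr1:23670299-23671303, a region of 1005 bp, had 29, 44 and 119, with a ratio of 2.70 (1.90 to 3.91). The intervals cover counting error of a single region and make no allowance for the choice of the most extreme among these shared regions. chr9:129622526-129623223 had 13, 20 and 54 reads, and chr7:100769992-100770791 had 51 at 4 h, against 19 at 2 h, with no DMSO peak. The choice fixes that the 4 h value lay above that of 2 h. The 4 h value also lay above the unscaled DMSO value wherever DMSO had a peak. At regions held by both lists, the median pileup ratio of 2 h to DMSO was already 2.27.

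The 5 regions of lowest ratio, chosen in the same way, were open at 2 h and at or below their DMSO level, or near the calling limit, at 4 h. chr18:46947142-46947782 had 8 reads at 4 h, against 35 at 2 h, a ratio of 0.229 (0.0916 to 0.502), and chr10:119590100-119590652 had 8, against 32. Neither was in the DMSO list. chr12:15101758-15102073 had 19 reads at DMSO, 41 at 2 h and 10 at 4 h, with a ratio of 4 h to 2 h of 0.244 (0.109 to 0.495). chr10:70359956-70360472 had 12, 43 and 12, and chr3:141814632-141815065 had 13, 37 and 11. In these regions the 4 h value was at or below that of DMSO wherever DMSO had a peak. Their local backgrounds stayed between 1.34 and 3.14 at both times, and 4 of the 5 were held by all 3 knockout lists, with chr10:119590100-119590652 held by 0.

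**Figure D3:**
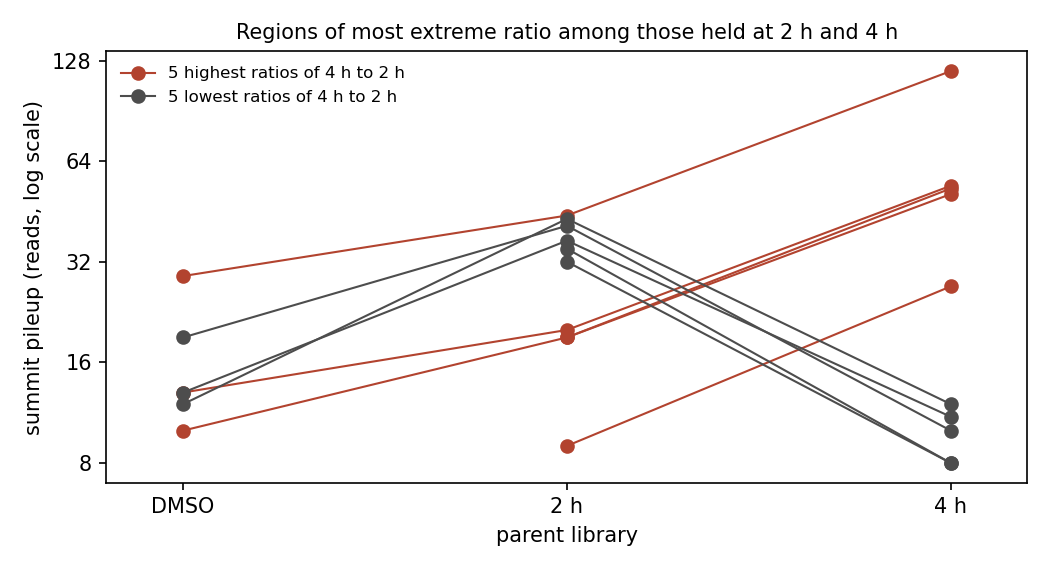
Summit pileup in reads, on a log axis, in the parent DMSO, 2 h and 4 h libraries. Shown are the 5 shared regions of highest and the 5 of lowest ratio of 4 h to 2 h, among those of at least 300 bp. Lines join the values of a region, a line without a DMSO point is a region absent from the DMSO list, and the upper set reaches 27 to 119 reads at 4 h while the lower set ends at 8 to 12.

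The size of the change followed the level at DMSO and the width of the region. For a DMSO pileup of 11 to 20 the median log2 ratio of 4 h to 2 h was 0.12, for 21 to 40 it was 0.33 and for 41 to 80 it was 0.32. Regions of 10 or fewer had a median of 0.00. The 293 regions with a DMSO pileup above 80 went the other way, at -0.06. They were 448 bp wide at the median, narrower than the 836 bp of the 21 to 40 class. Among all shared regions, the median log2 ratio was -0.01 for those under 400 bp and 0.29 for those of at least 800 bp.

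Gene-rich chromosomes stood higher at each of these DMSO levels, by little at the highest. The median log2 ratio was 0.40 on chromosomes 17, 19 and 22, with a pileup of 42 at 4 h, against 32 at 2 h. On the 20 others it was 0.10, with 35 at 4 h, against 34 at 2 h. In the class with 11 to 20 reads at DMSO the medians were 0.44 on the 3 chromosomes and 0.06 on the others, and with 21 to 40 reads they were 0.58 and 0.29. Above 80 reads at DMSO they were -0.04 and -0.06. Regions whose counting interval lay above the median ratio made up 17.2% on the 3 chromosomes and 7.09% on the others, and those below it 0.921% and 5.07%.

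Ordered by chromosome, the centred median was highest on chromosome 19, at 0.32, followed by 22 at 0.21, 17 at 0.20, 16 at 0.19 and 20 at 0.10. It was lowest on chromosome 4, at -0.19, and stood at -0.14 on 5 and 13 and at -0.13 on 18. The spread within a chromosome was wider than these differences, with quartiles on chromosome 19 of 0.04 to 0.54. In knockout cells chromosome 19 was lowest, at -0.12, and chromosome 4 was highest, at 0.08. Across the 23 chromosomes the parent and knockout medians had a Pearson correlation of -0.88 and a Spearman correlation of -0.85. This describes 4 libraries, in which all regions of a chromosome share the same library, chromosome and base composition.

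**Figure D4:**
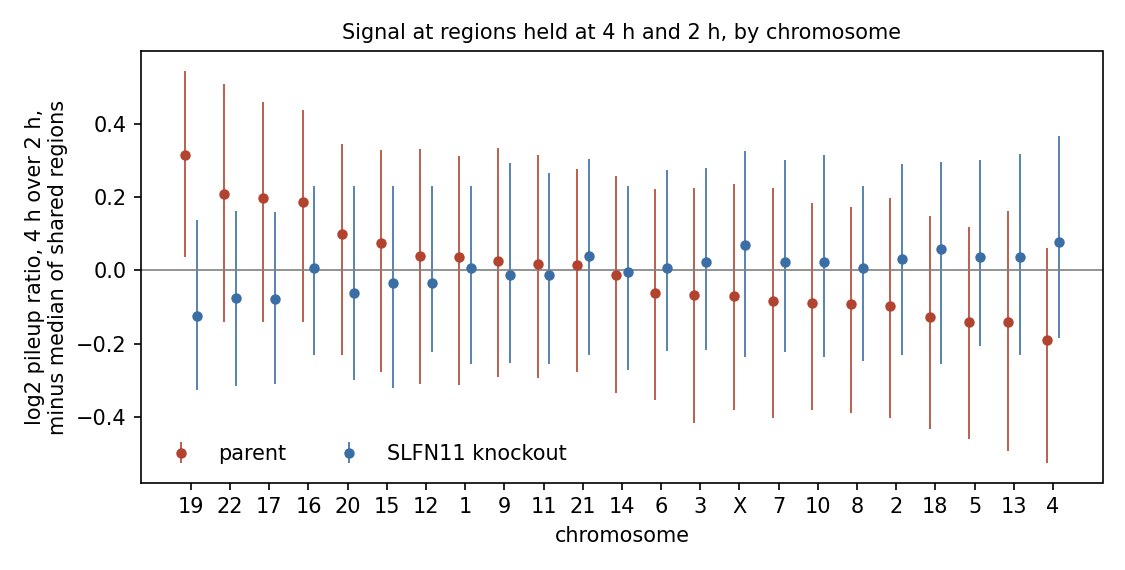
Log2 ratio of summit pileup, 4 h over 2 h, minus the median of shared regions of that genotype, by chromosome, ordered by the parent value. Points are medians and bars run between the quartiles over regions, for parent and SLFN11-knockout cells. Chromosome 19 is highest in parent cells at 0.32 and lowest in knockout cells at -0.12.

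The same regions can be followed through all 6 libraries. At the 11070 regions held by every list the median pileup in parent cells was 20 at DMSO, 49 at 2 h and 59 at 4 h, and in knockout cells it was 26, 30 and 24. On chromosome 19 the parent values were 19, 48 and 70, and on chromosome 4 they were 21, 51 and 52. These chromosomes differed in both steps. Over the same regions the median log2 ratio of 2 h to DMSO was 1.28 on chromosome 19 and 1.08 on chromosome 4, and that of 4 h to 2 h was 0.55 and -0.02. Knockout cells had 26, 30 and 23 reads on chromosome 19 and 27, 31 and 27 on chromosome 4. Chromosomes 17, 19 and 22 took 10.9% of the summed pileup of these regions at DMSO, 11.4% at 2 h and 13.2% at 4 h in parent cells. In knockout cells they took 11.3%, 11.4% and 10.9%.

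The density of open chromatin around a region went with its ratio beyond the choice of chromosome. Density was counted as the number of DMSO-list peaks of the same genotype within 500 kb. The parent DMSO list held 14205 peaks and the knockout DMSO list 19289, so a class does not cover the same regions in both genotypes. With 0 to 4 such neighbours the median log2 ratio was 0.00, with 5 to 9 it was 0.10, with 10 to 19 it was 0.25 and with 20 or more it was 0.36. Within the 20 other chromosomes alone the medians were 0.00, 0.08, 0.21 and 0.27, and within 17, 19 and 22 they were 0.25, 0.34, 0.42 and 0.54. At the same density, the 3 chromosomes were higher in every class. In knockout cells the order over all chromosomes was reversed, with -0.14, -0.21, -0.25 and -0.28.

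Missing peaks followed density and added peaks did so little. The share of parent 2 h regions missing at 4 h was 26.6% (25.4 to 27.7%) with 0 to 4 neighbours, 22.7% with 5 to 9, 16.02% with 10 to 19 and 11.02% (9.42 to 12.9%) with 20 or more. The added share was 13.4% (12.5 to 14.4%), 14.6%, 13.5% and 12.0% (10.3 to 13.9%) over the same classes. In knockout cells it was the added share that differed with density, at 23.02% (21.6 to 24.5%) in the sparsest and 10.6% (9.42 to 11.8%) in the densest class, while the missing share was 24.3% (22.8 to 25.8%) and 21.8% (20.3 to 23.3%). The classes are unlike between genotypes, as the densest held 1279 parent and 2855 knockout 2 h regions.

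**Figure D5:**
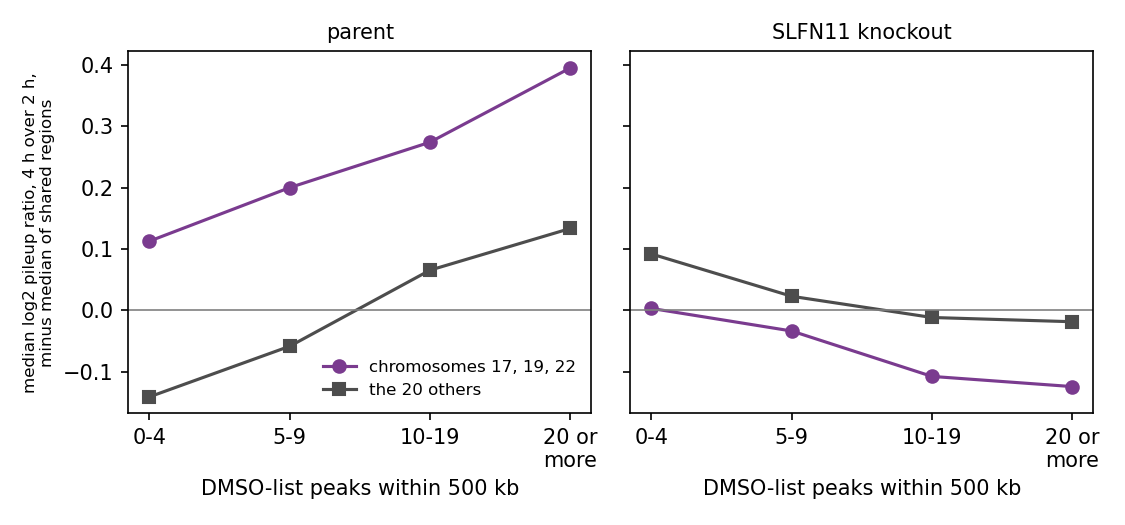
Median log2 ratio of summit pileup, 4 h over 2 h, minus the median of shared regions, by the number of DMSO-list peaks within 500 kb, in parent (left) and SLFN11-knockout cells (right). Lines are chromosomes 17, 19 and 22 and the 20 others, without replicate error, and the parent lines go up with density whereas the knockout lines go down.

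In parent cells the background around the peaks moved with the signal. At shared regions the median log2 ratio of local background, 4 h over 2 h, was 0.30 on chromosomes 17, 19 and 22 and 0.05 on the others in parent cells, and -0.22 and -0.20 in knockout cells. Across density classes the background ratio was -0.04, 0.05, 0.18 and 0.28 in parent cells and -0.16, -0.20, -0.22 and -0.21 in knockout cells. The knockout signal ratio was -0.32 on chromosomes 17, 19 and 22 and -0.22 on the others, further apart than its background. The background estimated near a peak can include reads of the peak and its neighbours. The part of background, base composition and read totals in these differences was not tested.

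Windows of 1 Mb with at least 10 shared regions showed where the differences lay along chromosomes. There were 666 such windows, which held 10877 regions. The centred median was above 0 in 110 of 116 windows on chromosomes 17, 19 and 22 and in 317 of 550 on the others. It exceeded 0.25 in 144 windows, 60 of them on the 3 chromosomes, and was below -0.25 in 66, of which 0 were on them. Windows within a chromosome thus differed as well, and chromosome 1 held both a leading and a trailing one.

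The highest window was 33 to 34 Mb of chromosome 1, with a centred median of 0.65 over 14 regions, 9 of them above 0. Next came 21 to 22 Mb of chromosome 22, at 0.56 with 14 of 15 regions above 0, and 1 to 2 Mb of chromosome 16, at 0.53 with 18 of 20. Chromosome 19 gave 3 of the 8 highest windows, 0 to 1 Mb at 0.49, 49 to 50 Mb at 0.49 and 47 to 48 Mb at 0.49, where 23 of 26, 28 of 31 and 24 of 28 regions were above 0. In these chromosome 19 windows the knockout medians were 0.05, -0.14 and -0.03. In the leading windows of chromosomes 1, 22 and 16 they were -0.31, 0.10 and -0.28.

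The lowest window was 182 to 183 Mb of chromosome 2, at -0.56, where 1 of 13 regions was above 0. It was followed by 35 to 36 Mb of chromosome 11, at -0.53 with 3 of 11, 105 to 106 Mb of chromosome 13, at -0.52 with 1 of 11, and 101 to 102 Mb of chromosome 1, at -0.48 with 1 of 12. The knockout medians were 0.31 in the chromosome 2 window, 0.25 in the chromosome 11 window and 0.33 in the chromosome 1 window. Other low windows had knockout medians near 0. These were 0.003 at 110 to 111 Mb of chromosome 5 and -0.06 at 50 to 51 Mb of chromosome 7. Over the 468 windows with at least 10 regions in both genotypes, the parent and knockout medians had a Pearson correlation of -0.38 and a Spearman correlation of -0.36. Neighbouring windows are not independent, and no p is given.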

How the data were processed

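Peak lists of 6 ATAC-seq libraries were used. Per the submitters' processing notes, the tools and build were MACS2 2.1.2, BWA 0.7.17 and hg19, beside Trim Galore 0.6.2, Trimmomatic 0.39, Picard 2.9.2 and SAMtools 1.8. Settings, read shifting, duplicate treatment and read totals were not given in the sources used here. Such choices can move peak edges and peak numbers. Each list carries 1 library code, so peaks were called per library.

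The score deposited by the authors is 10 times the -log10 q, truncated. Their deposited fold is a ratio of summit to local background, and the deposited -log10 p and -log10 q come from the same caller, down to a q of 0.01. The summit offset was not used.

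Entries on the mitochondrial genome and chromosome Y were left out, and overlapping entries were merged. Peaks sharing at least 1 bp were matched, and regions were unions of matching peaks over the 3 lists of a genotype. Opening counts of regions are unions over 2 lists. The pileup and background at each summit were solved from fold and p under a Poisson model and were whole within 0.02 for at least 99.95% of entries per list. A region takes its highest peak. Intervals are Wilson intervals for shares and exact conditional binomial intervals for pileup ratios, at 95%. They cover counting error only, since neighbouring peaks and amplified reads are not independent. The scripts were tested on simulated data, with Python 3.11.15, numpy 2.4.6, pandas 2.3.3 and scipy 1.17.1.

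Named regions were, per pattern, the 3 most significant of at least 300 bp and the most significant of any width. Named shared regions were the 5 highest and 5 lowest ratios. Only shared regions of at least 300 bp with a pileup of at least 20 in 1 list were eligible. The comparison, its members, chromosome group and lists were chosen with earlier results of these data known. Alternatives tried were 50% overlap, a stricter -log10 q of 5, equal list lengths, unmerged entries, other scalings, a 1.5-fold limit, a pileup or width minimum, single chromosomes and the recorded placement. Density windows, and the retained share under other settings, were added after seeing the data.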

Additional observations from a re-analysis of the deposited data

Results flagged for a closer look

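The comparison of 4 h with 2 h went in opposite directions in parent and knockout cells for 3 measures, and none of these differences between genotypes was tested, since each group has 1 library. The median log2 ratio of summit pileup at shared regions was 0.14 in parent and -0.23 in knockout cells. Chromosomes 17, 19 and 22 minus the 20 others differed in this median by 0.30 in parent cells and by -0.10 in knockout cells. In the share of 2 h peaks missing at 4 h they differed by -11.2 percentage points in parent and by 0.856 points in knockout cells. The knockout difference in points is small beside its interval, as the shares of 24.7% (23.04 to 26.5%) on the 3 chromosomes and 23.9% (23.3 to 24.5%) on the others overlap.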

How the results depend on the processing

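No paired analysis was possible because there is 1 library per group, and for the same reason no library could be left out. The placement of the lists decides the direction. With the recorded placement, chromosomes 17, 19 and 22 minus the others differed by 11.4 points in missing peaks, by -9.30 in added peaks and by -0.41 in the median log2 ratio, so the first and last turn. That placement also gave 11.2% added and 42.8% missing peaks, pattern counts of 214 (2 h and 4 h), 812 (4 h alone), 2751 (2 h alone), 6319 (DMSO and 2 h), 721 (DMSO and 4 h) and 4212 (DMSO alone), 19.1% of shared regions more than 2-fold above and 2.35% below, and retained shares of 7.22% in parent and 28.0% in knockout cells.

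The added and missing shares were 10.5% and 17.5% at a -log10 q of at least 5, 15.5% and 22.6% at 50% overlap, 16.4% and 16.3% with lists of equal length, and 9.99% and 15.1% with unmerged entries. Equal lengths remove the difference by construction. In the order 4 h alone, DMSO and 2 h, DMSO and 4 h, DMSO alone, the pattern counts were 1715, 417, 104 and 418 at the stricter q and 407, 420, 113 and 104 for regions of at least 300 bp, where 2 h alone had 810. When a region had to reach the stricter q in the lists that hold it and have no entry in the others, they were 863, 209, 45 and 230, with 4040 at 2 h and 4 h and 1471 at 2 h alone. Equal lengths gave 1292 (4 h alone), 423 (DMSO and 4 h), 2386 (DMSO alone), 2155 (2 h and 4 h) and 897 (2 h alone), so that DMSO alone passed 2 h and 4 h, and 4 h alone passed 2 h alone.

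Shares of shared regions above and below were 1.74% and 1.25% by the lowest background, 0.249% and 3.39% by the summed pileup, 7.61% and 11.9% at 1.5-fold, and 0.265% and 3.39% for a pileup of at least 20. The chromosome difference in missing peaks was -9.49 points in equal lists, -9.31 at the stricter q, -12.9 for chromosome 19 on its own and -8.77 for chromosome 22, and that in added peaks was 1.65 at the stricter q. The difference in log2 ratio lay between 0.24 and 0.35 in equal lists, at the stricter q and for chromosomes 17, 19 and 22 singly, the other settings run for it beside the recorded placement. Retained shares were 70.6% in parent and 43.4% in knockout cells in equal lists, and 69.3% and 36.5% at the stricter q. The density difference of 0.32, between regions at or above the upper and at or below the lower quartile of density, was 0.24 to 0.33 with other windows or the knockout DMSO list. Apart from the recorded placement, the cause of these shifts was not tested. Read depth was not used here, and peaks near the lowest pileup of 8 can be absent from a list by counting error.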
